A study of Arabidopsis thaliana with 6 samples.

Results

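The genes described here are 50 loci of the jasmonate pathway of *Arabidopsis thaliana*, from the release of the fatty acid precursor through the synthesis, perception and breakdown of the hormone to its best known output genes. They were chosen by locus identifier from the 33602 loci of the count table, by a rule that sets no threshold on their values, although earlier results of these data were known when the list was made. A gene was taken as measured where its mean over the 6 libraries was at least 10 counts, and 32 of the 50 genes were. Leaf mRNA was sequenced from *rse1-1* and L*er* (WT) plants, with 3 biological replicates of each. *rse1-1* carries an EMS-induced C-to-T change that puts a premature stop codon into *RSE1*, a glycosyltransferase-like gene, in the L*er* background. It is 1 allele, and no other allele or complemented line is among these libraries. L*er* is the wild-type accession. Plants of both genotypes were untreated and grew in soil at 22°C under 16 h of light and 8 h of dark, and the third and the fourth rosette leaves were taken on the same day of age. The labels do not say how many plants made up a replicate. The comparison asks which jasmonate genes differ in leaves of a mutant that goes on to senesce early.

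Jasmonates are lipid-derived hormones of wounding, defense and leaf aging. In the plastid, a lipoxygenase, allene oxide synthase (AOS) and allene oxide cyclase (AOC) turn linolenic acid into the precursor OPDA, which is reduced and shortened in the peroxisome to jasmonic acid. JAR1 joins it to isoleucine, and this conjugate brings the F-box protein COI1 together with JAZ repressors, which are then degraded and set free MYC2 and related transcription factors. MYC factors switch on many genes of synthesis, the *JAZ* genes and the breakdown enzymes, so that the transcripts of most of the pathway are themselves markers of the response.

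The libraries held 9960144 to 15244500 counts on genes, and *rse1-1* replicate 1 was the deepest, so counts are compared below only after scaling to the size of the library (CPM, normalised counts per 1e6 counts). A count of 0 allows up to 3 counts, or 0.195 to 0.304 CPM, by counting error only. The mutated gene, *RSE1*, had 290, 219 and 264 counts in *rse1-1*, against 563, 552 and 667 counts in L*er* (20.4 ± 1.31 and 56.3 ± 1.71 CPM, SD, n = 3 each), lower in every *rse1-1* library. Of 6 mesophyll markers, 3 reached a mean of 10 counts, with *CAB1* and *RBCS3B* at 0 in every library, 2 were called lower, and the 6 summed to 1202 to 1461 CPM in *rse1-1* and 2333 to 2458 CPM in L*er*. Of 5 vascular markers 4 were lower, with sums of 1053 to 1112 CPM in *rse1-1* and 1539 to 1705 CPM in L*er*, and of 4 epidermal markers 3 were lower and 1 was higher, with sums of 537 to 589 CPM in *rse1-1* and 682 to 727 CPM in L*er*. Of the 4 guard cell markers 1 was higher and 2 were lower, and they summed to 199.7 to 215 CPM in *rse1-1* and 181 to 184 CPM in L*er*, and the 4 root markers, of which 1 was higher and *RHD6* was at 0, summed to 5.5 to 5.91 CPM in *rse1-1* and 2.94 to 5.0 CPM in L*er*. Markers of trichomes and flowers summed to at most 0.195 CPM in any library. None of these 3 trichome and 4 flower markers reached a mean of 10 counts. *MYB0*, *CPC*, *AG* and *AP1* were at 0 in every library, which is not read here as absence of such cells. By the test described below, 38.3% of all genes tested were called lower and 38.8% higher, so a few called markers say little about a cell type. In whole leaves, fewer cells of a type and less RNA per cell cannot be told apart. The part of these marker differences in the values below was not tested.

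Counts also depended on where a gene lies. Of 330 ribosomal protein genes, which every cell uses, a mean of at least 10 counts was reached by 67 of 76 (88.2%) that lie within 5 Mb of the start of their chromosome, against 136 of the 254 that lie farther along (53.5%). Reads had been aligned by the authors to a Col-0 sequence into which L*er*-0 variants were written, and the part of that step in the missing genes was not tested. Of the 50 jasmonate genes 18 were not measured and 10 of these were listed at 0 in all 6 libraries, and such a 0 is not read here as the absence of a transcript.

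The stretch of 250 bases before the annotated start was read for each gene from the RefSeq Col-0 genome (TAIR10.1) and searched on both strands for the G-box CACGTG, which MYC factors bind, the GCC-box GCCGCC of ERF factors, the W-box TTGACC or TTGACT of WRKY factors, and the TGACG core of TGA factors. A G-box stood in 8 of the 50 promoters (16%), against 5.83% of 32834 promoters in the genome. The other motifs were found in 2 (4%, against 1.98%), 13 (26%, against 28.0%) and 12 (24%, against 18.2%) of the 50 promoters. The promoters of *JAZ3* and *ORA59* are shown because these measured genes carry both the G-box and the TGACG core, and *ORA59* a GCC-box as well. *JAZ2* and AT3G11180, which were not measured, also carry the G-box and the TGACG core. That of AT5G05600 is shown because the gene with the largest fold change of the 32 carries none of the motifs. Capitals mark the motifs, and a motif on the other strand appears as its reverse complement. They are *JAZ3* at chr3:6119457-6119706 (+ strand), *ORA59* at chr1:1882657-1882906 (+ strand) and AT5G05600 at chr5:1671820-1672069 (+ strand).
JAZ3: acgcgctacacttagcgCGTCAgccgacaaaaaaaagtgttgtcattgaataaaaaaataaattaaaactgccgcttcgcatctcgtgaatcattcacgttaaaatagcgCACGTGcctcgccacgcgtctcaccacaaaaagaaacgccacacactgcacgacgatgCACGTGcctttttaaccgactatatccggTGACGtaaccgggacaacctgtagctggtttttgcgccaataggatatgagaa
ORA59: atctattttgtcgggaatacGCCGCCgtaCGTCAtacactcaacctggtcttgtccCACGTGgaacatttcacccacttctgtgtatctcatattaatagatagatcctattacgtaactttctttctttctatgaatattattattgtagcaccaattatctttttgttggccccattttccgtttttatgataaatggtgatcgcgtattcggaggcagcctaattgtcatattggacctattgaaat
AT5G05600: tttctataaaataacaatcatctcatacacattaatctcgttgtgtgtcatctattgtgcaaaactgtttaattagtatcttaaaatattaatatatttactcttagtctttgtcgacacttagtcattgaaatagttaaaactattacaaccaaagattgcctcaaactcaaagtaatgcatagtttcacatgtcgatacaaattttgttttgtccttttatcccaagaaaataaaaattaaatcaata
The *JAZ3* stretch holds 2 G-boxes and 2 TGACG cores. The *ORA59* stretch holds a GCC-box, a TGACG core and a G-box. Among measured genes, the G-box was found before 2 of the 25 that rose (*ACX1* and *ORA59*) and before 1 of the 7 that did not (*JAZ3*), and 5 of the 18 unmeasured genes had one (*AOS*, *JAZ2*, *JAZ7*, *JAZ8* and AT3G11180). Over all genes tested, 470 of the 1140 with a G-box rose (41.2%), against 5821 of the 15089 without one (38.6%). The W-box stood before 7 of the 25 and 0 of the 7, the TGACG core before 5 and 3, and the GCC-box before 1 and 0. For these motifs, the share that rose among all genes tested was not taken. A match describes the letters of the window alone, in an accession other than L*er*.

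Of the 32 measured genes 25 were higher in *rse1-1* than in L*er*, 4 were lower and 3 did not pass the test (edgeR's quasi-likelihood test, Benjamini-Hochberg adjusted over the 16294 genes tested, threshold 0.05). The background for this count is high, since 77% of all genes tested were called, 38.8% as higher and 38.3% as lower. The jasmonate genes were called in 90.6%, as higher in 78.1% and as lower in 12.5%. At least a doubling, which is a log2 fold change of 1 or more, was called as higher in 19 of them (59.4%), against 17.4% of all genes. The median log2 fold change was 1.57 for the 32 genes and -0.0086 over all genes tested. The values of the genotypes did not overlap in 29 of the 32 genes, against 79.5% of all genes. *AOC3* passed the minimum only through *rse1-1*, where it was high. *JAZ9*, *CYP94C1* and *ORA59* were high in *rse1-1* and had fewer than 10 counts in a L*er* library. With at least 10 counts required in every library, 28 genes were left, of which 21 rose and 4 fell, with a median of 1.27.

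**Figure D1:**
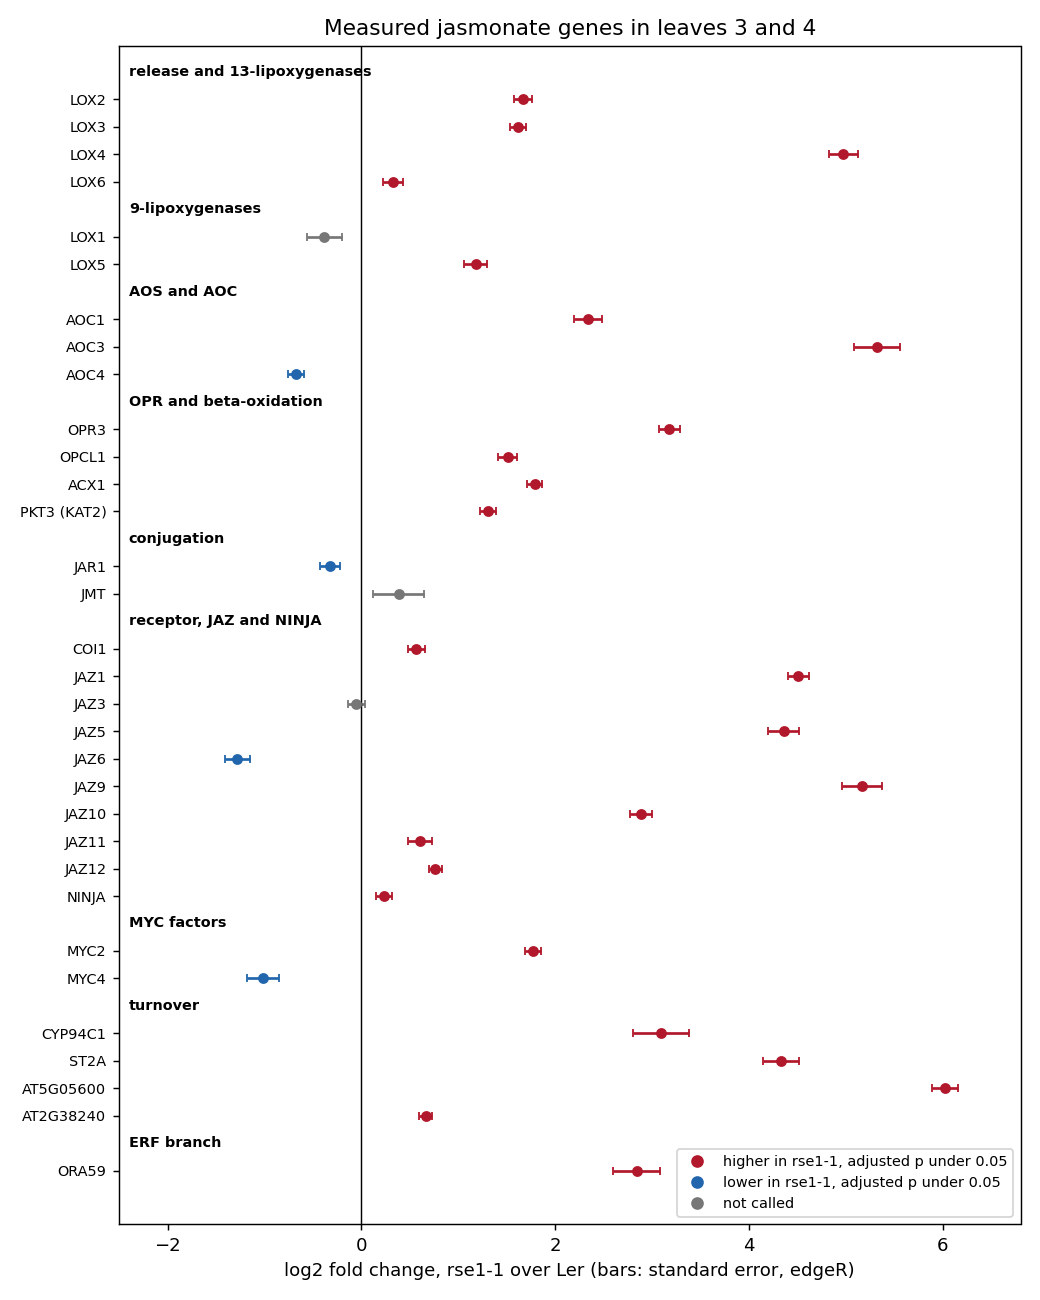
Log2 fold change of *rse1-1* over L*er* for the 32 measured jasmonate genes, grouped by role, with the standard error from edgeR as bars. Points right of the line were higher in *rse1-1*, red marks the 25 genes called higher, blue the 4 called lower and gray the 3 not called.

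The lipoxygenases that open the pathway rose. All 4 measured plastid lipoxygenases were called higher, as 38.8% of all genes were, and *DAD1* (AT2G44810), a lipase that frees the fatty acid in anthers, was at 0 in every library. *LOX2* (AT3G45140), the main leaf enzyme, had 21543, 17202 and 17011 counts in *rse1-1*, against 4831, 4429 and 5379 counts in L*er*. It averaged 1475 ± 167 CPM in *rse1-1* and 463 ± 27.0 CPM in L*er* (SD, n = 3 each), a log2 fold change of 1.67 (SE 0.0920, edgeR adjusted p = 3.96e-10). Per kilobase of exon it had the highest counted level of the 32 measured genes in both genotypes. This was 453 CPM per kb in *rse1-1* and 142 CPM per kb in L*er*. Since counts depended on position, this order of genes may differ from that of the transcripts. The related enzymes *LOX3* and *LOX4* differed in how far they rose. *LOX3* (AT1G17420) had 1758, 1092 and 1325 counts in *rse1-1*, against 312, 357 and 454 counts in L*er*, a log2 fold change of 1.62 (SE 0.0838, edgeR adjusted p = 1.97e-10). *LOX4* (AT1G72520) had 740, 420 and 571 counts in *rse1-1*, against 12, 13 and 20 counts in L*er*, a log2 fold change of 4.97 (SE 0.150, edgeR adjusted p = 6.16e-13). The coding sequences of this pair are 81.1% identical and no stretch of 75 bases, the read length, recurs in either. *LOX6* (AT1G67560), the lipoxygenase of early wound signals, rose by 0.33 on the log2 scale (SE 0.0999, edgeR adjusted p = 0.00832), a call that was lost with upper quartile scaling (0.13, edgeR adjusted p = 0.227). A second class of lipoxygenases oxidizes another carbon of the fatty acid and does not lead to jasmonate. Of these, *LOX5* (AT3G22400) had 345, 222 and 270 counts in *rse1-1*, against 80, 101 and 125 counts in L*er*, a log2 fold change of 1.18. *LOX1* (AT1G55020) had 146, 57 and 94 counts in *rse1-1*, against 107, 111 and 96 counts in L*er*. Its CPM values overlapped and the difference of -0.38 did not pass the test (edgeR adjusted p = 0.0702). It was called lower without L*er* replicate 3 (-0.51, edgeR adjusted p = 0.0289), without *rse1-1* replicate 1 (-0.59, edgeR adjusted p = 0.0126), with upper quartile scaling and with no filter on low counts, and ranged from -0.59 to -0.21 as each library was left out.

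Allene oxide synthase has a single gene, *AOS* (AT5G42650), and it was at 0 in all 6 libraries, as were the genes annotated on either side of it. Within 2.5 Mb of it, 66.7% of the ribosomal protein genes had a mean of at least 10 counts. The next step can therefore be followed only through its 4 cyclase genes, which did not move together. *AOC1* (AT3G25760) had 1088, 881 and 676 counts in *rse1-1*, against 143, 138 and 156 counts in L*er* (70.001 ± 15.7 and 13.8 ± 0.577 CPM, SD, n = 3 each), a log2 fold change of 2.33 (SE 0.145, edgeR adjusted p = 1.47e-09). *AOC3* (AT3G25780) had 395, 278 and 259 counts in *rse1-1*, against 5, 3 and 11 counts in L*er* (24.4 ± 3.33 and 0.583 ± 0.333 CPM). Its log2 fold change of 5.32 (SE 0.239, edgeR adjusted p = 4.16e-11) rests on these few counts in L*er*. *AOC4* (AT1G13280) fell, with 764, 597 and 717 counts in *rse1-1*, against 914, 912 and 930 counts in L*er*, a log2 fold change of -0.68 (SE 0.0826, edgeR adjusted p = 2.74e-06). *AOC2* (AT3G25770), between *AOC1* and *AOC3* on chromosome 3, had 8, 2 and 2 counts in *rse1-1* and 3, 4 and 0 counts in L*er* and was not measured. *AOC1* and *AOC2* share 90.3% of their coding bases, *AOC1* and *AOC3* 83.2%, and no 75-base stretch is repeated among them in the reference. In L*er*, *AOC4* had the highest level of the measured cyclases, at 65.2 CPM per kb of exon, against 11.6 CPM per kb for *AOC1*. In *rse1-1* the order was turned round, with 58.8 CPM per kb for *AOC1* and 40.9 CPM per kb for *AOC4*. Of the ribosomal protein genes within 2.5 Mb, 93.3% around *AOC4* and 69.2% around *AOC1* had a mean of at least 10 counts. The part of position in the order within a genotype was not tested.

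All 4 measured genes of the peroxisomal steps among the 50 rose, as 38.8% of all genes tested did. *OPR3* (AT2G06050), the reductase of OPDA in this pathway, had 7290, 5333 and 6379 counts in *rse1-1*, against 665, 497 and 579 counts in L*er*. It averaged 500 ± 22.4 CPM in *rse1-1* and 55.4 ± 10.4 CPM in L*er* (SD, n = 3 each), 9.03-fold higher (log2 fold change 3.17, SE 0.109, edgeR adjusted p = 2.27e-12). Its relatives *OPR1* (AT1G76680) and *OPR2* (AT1G76690) had at most 2 counts in any library and could not be compared. *OPCL1* (AT1G20510), which activates the reduced precursor with coenzyme A, had 3411, 2571 and 2878 counts in *rse1-1*, against 948, 716 and 915 counts in L*er* (log2 fold change 1.51, edgeR adjusted p = 2.42e-09). *ACX1* (AT4G16760), the acyl-CoA oxidase of this beta-oxidation, had 4746, 2945 and 3449 counts in *rse1-1*, against 790, 832 and 1040 counts in L*er* (log2 fold change 1.79, edgeR adjusted p = 2.28e-11). *PKT3* (AT2G33150), the thiolase also called *KAT2*, had 8159, 5191 and 7220 counts in *rse1-1*, against 2363, 2183 and 2293 counts in L*er* (log2 fold change 1.30, edgeR adjusted p = 2.57e-09). In each of these genes the lowest *rse1-1* library stood above the highest L*er* library in CPM. The genotypes did not overlap in 79.5% of all genes tested. ACX1 and this thiolase also serve the breakdown of other fatty acids.

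**Figure D2:**
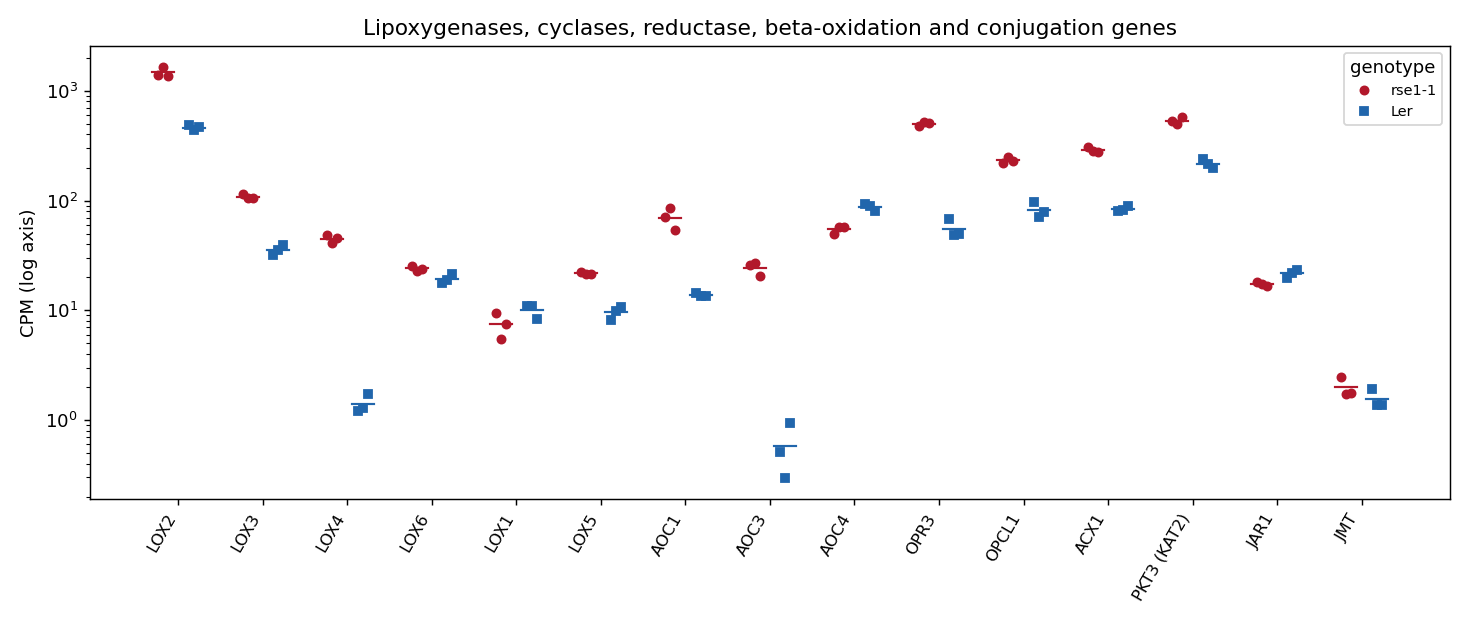
CPM on a log axis of the measured genes of jasmonate synthesis and conjugation, with a point for each library and a line at the mean of 3 libraries, *rse1-1* left and L*er* right of each pair. *LOX4* and *AOC3* show the widest gaps, *AOC4* and *JAR1* are lower in *rse1-1*, and the points of *LOX1* and *JMT* overlap.

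The genes that conjugate or methylate jasmonic acid were not called higher. *JAR1* (AT2G46370), which makes the active isoleucine conjugate, had 276, 180 and 208 counts in *rse1-1*, against 194, 221 and 273 counts in L*er*. In CPM it was slightly lower in *rse1-1*, at 17.3 ± 0.696 CPM, against 21.7 ± 1.92 CPM in L*er* (SD, n = 3 each, log2 fold change -0.32, SE 0.101, edgeR adjusted p = 0.00936). This call was lost with DESeq2 (adjusted p = 0.0568) and without L*er* replicate 3 (edgeR adjusted p = 0.0614). *JMT* (AT1G19640), which makes the volatile methyl ester, was the measured gene nearest the minimum, with a mean of 21.2 counts. It had 38, 18 and 22 counts in *rse1-1*, against 19, 14 and 16 counts in L*er*, and did not pass the test (log2 fold change 0.38, edgeR adjusted p = 0.199).

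The receptor gene rose little and its repressors varied widely. *COI1* (AT2G39940) had 648, 434 and 548 counts in *rse1-1*, against 312, 283 and 313 counts in L*er* (42.6 ± 0.919 and 28.8 ± 2.48 CPM, SD, n = 3 each), a log2 fold change of 0.57 (SE 0.0852, edgeR adjusted p = 2.36e-05). Of the 12 *JAZ* genes 8 were measured, of which 6 rose, 1 fell and 1 did not pass the test, with log2 fold changes between -1.28 and 5.17. Among all genes tested, 38.8% were called higher and 38.3% lower. *NINJA* (AT4G28910), the adaptor that joins JAZ proteins to a co-repressor, changed by 0.23 (SE 0.0859, edgeR adjusted p = 0.0232). That call was lost with upper quartile scaling (0.04, edgeR adjusted p = 0.678) and without L*er* replicate 3 (edgeR adjusted p = 0.111) or *rse1-1* replicate 2 (edgeR adjusted p = 0.0549).

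Within the *JAZ* family the steepest rises were in *JAZ1*, *JAZ5*, *JAZ9* and *JAZ10*, which are repressors that jasmonate itself is known to induce to different degrees. *JAZ1* (AT1G19180) had 3472, 2089 and 2384 counts in *rse1-1*, against 84, 80 and 123 counts in L*er*. It averaged 206 ± 18.2 CPM in *rse1-1* and 9.0 ± 1.42 CPM in L*er* (SD, n = 3 each), 22.8-fold higher (log2 fold change 4.51, SE 0.111, edgeR adjusted p = 9.12e-14). *JAZ5* (AT1G17380) had 1432, 933 and 1064 counts in *rse1-1*, against 52, 24 and 62 counts in L*er* (log2 fold change 4.36, SE 0.157, edgeR adjusted p = 3.66e-12). *JAZ9* (AT1G70700, annotated as *TIFY7*) had 606, 312 and 500 counts in *rse1-1*, against 6, 10 and 16 counts in L*er* (log2 fold change 5.17, SE 0.204, edgeR adjusted p = 9.99e-12). *JAZ10* (AT5G13220), a repressor with known splice forms that resist degradation, had 718, 472 and 494 counts in *rse1-1*, against 54, 58 and 76 counts in L*er* (log2 fold change 2.89, SE 0.117, edgeR adjusted p = 1.29e-11). Counts per gene do not separate such splice forms.

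The remaining measured *JAZ* genes moved less, and one moved the other way. *JAZ11* (AT3G43440) rose by 0.60 (edgeR adjusted p = 5.22e-04) and *JAZ12* (AT5G20900) by 0.76 (edgeR adjusted p = 7.12e-08) on the log2 scale. *JAZ3* (AT3G17860), with its 2 G-boxes, had 548, 365 and 424 counts in *rse1-1*, against 390, 330 and 427 counts in L*er*. At 34.9 ± 0.996 CPM in *rse1-1* and 36.3 ± 3.56 CPM in L*er* its values overlapped (log2 fold change -0.05, SE 0.0882, edgeR adjusted p = 0.586). *JAZ6* (AT1G72450) had 249, 179 and 163 counts in *rse1-1*, against 307, 404 and 482 counts in L*er* (15.5 ± 2.25 and 37.5 ± 5.56 CPM), a log2 fold change of -1.28 (SE 0.126, edgeR adjusted p = 2.72e-07). Among the measured *JAZ* genes, the order of levels thus differed between the genotypes. In *rse1-1*, *JAZ1* led with 114 CPM per kb of exon, before *JAZ12* with 87.8 and *JAZ5* with 40.0 CPM per kb. In L*er*, *JAZ12* led with 51.7 CPM per kb, before *JAZ6* with 17.6 and *JAZ3* with 13.2 CPM per kb. Recovery of ribosomal protein genes within 2.5 Mb was 82.6% around *JAZ12*, 46.7% around *JAZ6* and 95% around *JAZ3*. The part of position in the order within a genotype was not tested. *JAZ7* (AT2G34600) and *JAZ8* (AT1G30135) were at 0 in every library, and *JAZ2* (AT1G74950, annotated as *TIFY10B*) and *JAZ4* (AT1G48500) had at most 2 counts.

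The MYC factors that JAZ proteins hold back differed from each other in direction. *MYC2* (AT1G32640), the best known of them, had 1636, 1277 and 1340 counts in *rse1-1*, against 354, 325 and 358 counts in L*er*. It averaged 112 ± 9.83 CPM in *rse1-1* and 32.9 ± 2.65 CPM in L*er* (SD, n = 3 each, log2 fold change 1.77, SE 0.0867, edgeR adjusted p = 1.09e-10). *MYC4* (AT4G17880) had 90, 71 and 55 counts in *rse1-1*, against 126, 114 and 122 counts in L*er* (5.71 ± 1.25 and 11.5 ± 1.16 CPM, log2 fold change -1.02, SE 0.163, edgeR adjusted p = 4.46e-05). Both genes lack overlap between the genotypes in CPM, as did 79.5% of all genes tested. *MYC3* (AT5G46760) was at 0 in every library.

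Genes of jasmonate breakdown held the largest rise of the 32. AT5G05600, which belongs with the jasmonate oxidases that hydroxylate the free acid, had 5197, 3249 and 3829 counts in *rse1-1*, against 51, 33 and 72 counts in L*er*. It averaged 319 ± 17 CPM in *rse1-1* and 4.88 ± 1.5 CPM in L*er* (SD, n = 3 each), 64.8-fold higher (log2 fold change 6.02, SE 0.135, edgeR adjusted p = 4.04e-14). The 3 other oxidases gave different pictures. AT2G38240 rose by 0.66 on the log2 scale (edgeR adjusted p = 2.70e-07). *JRG21* (AT3G55970) had 12, 9 and 13 counts in *rse1-1* and 0 in each L*er* library, which left its mean under the minimum. AT3G11180 was at 0 in every library. *ST2A* (AT5G07010), a sulfotransferase of hydroxylated jasmonate, had 1092, 811 and 689 counts in *rse1-1*, against 47, 24 and 36 counts in L*er* (68.2 ± 12.1 and 3.41 ± 1.23 CPM, log2 fold change 4.32, SE 0.186, edgeR adjusted p = 2.54e-11). *CYP94C1* (AT2G27690), which oxidizes the isoleucine conjugate further, had 176, 69 and 105 counts in *rse1-1*, against 15, 10 and 8 counts in L*er* (8.83 ± 2.42 and 1.07 ± 0.422 CPM, log2 fold change 3.09, SE 0.285, edgeR adjusted p = 1.28e-07). The hydroxylases *CYP94B3* (AT3G48520) and *CYP94B1* (AT5G63450) were at 0 in every library. The 4 measured of the 8 breakdown genes all rose, with a median log2 fold change of 3.71. Of all genes tested, 38.8% were called higher.

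**Figure D3:**
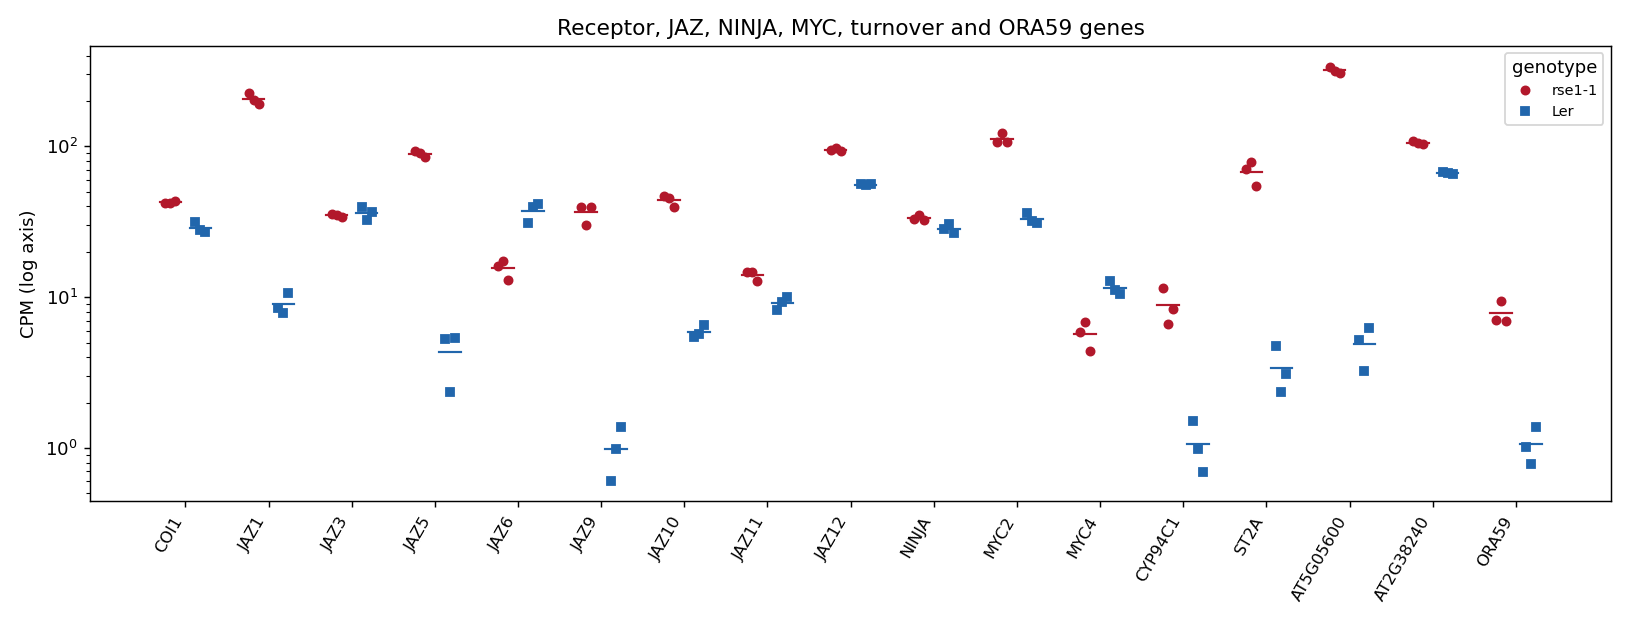
CPM on a log axis of the measured genes of jasmonate perception, repression, transcription and breakdown and of *ORA59*, with a point for each library and a line at the mean of 3 libraries, *rse1-1* left and L*er* right of each pair. *JAZ1*, *JAZ5*, *JAZ9*, *ST2A* and AT5G05600 stand far above L*er* in *rse1-1*, *JAZ6* and *MYC4* stand below it, and the points of *JAZ3* overlap.

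The output genes were poorly covered. The vegetative storage protein genes of the MYC branch lay just under the minimum, both with a mean of 8.83 counts. *VSP1* (AT5G24780) had 6, 9 and 12 counts in *rse1-1*, against 6, 3 and 17 counts in L*er*. *VSP2* (AT5G24770) had 5, 2 and 6 counts in *rse1-1*, against 10, 3 and 27 counts in L*er*. The counts of both overlapped, and the pair shares 90.4% of its coding bases. *ORA59* (AT1G06160), the factor that joins jasmonate and ethylene signals, had 109, 98 and 87 counts in *rse1-1*, against 10, 8 and 16 counts in L*er* (7.84 ± 1.43 and 1.06 ± 0.298 CPM, SD, n = 3 each, log2 fold change 2.84, SE 0.241, edgeR adjusted p = 4.98e-08). *ERF1* (AT3G23240) and the defensin gene *PDF1.2* (AT5G44420), the usual readout of this branch, were at 0 in every library. Thus neither branch has a measured end product among these genes.

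The genes that were measured and those that were not differed in median span. The 32 measured genes had a median span of 2757 bases and the 18 others one of 1889 bases. The median share of ribosomal protein genes within 2.5 Mb that had a mean of at least 10 counts was 63.8% around measured genes and 51.7% around the others, but 60.4% around the 10 genes at 0 in every library. Of the 7 jasmonate genes that start within the first 5 Mb of their chromosome, 6 were measured (*AOC4*, *OPR3*, *JAZ10*, *ST2A*, AT5G05600 and *ORA59*), of which 5 rose and *AOC4* fell. Of the 14 measured genes with at least 70% of nearby ribosomal protein genes at this level, 11 rose and 1 fell, with a median log2 fold change of 1.69. Over all genes tested, wherever they lie, 38.8% were called higher and 38.3% lower.

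**Figure D4:**
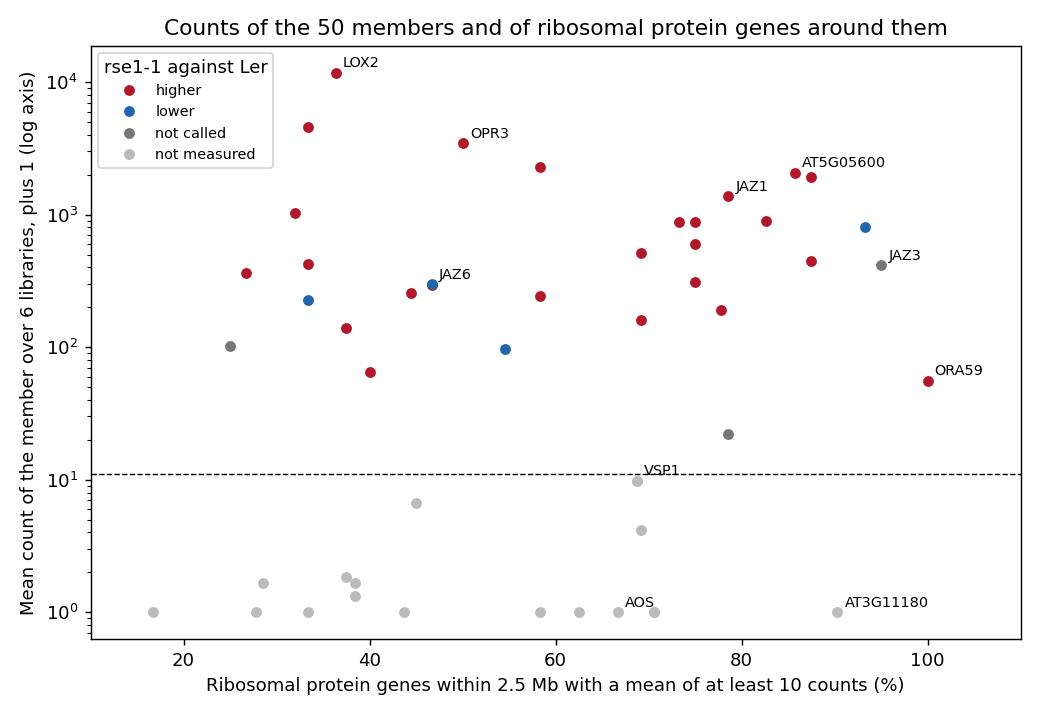
Mean count over the 6 libraries plus 1, on a log axis, of each of the 50 jasmonate genes against the percentage of ribosomal protein genes within 2.5 Mb that had a mean of at least 10 counts. The dashed line is the minimum for a measured gene, the 18 genes under it spread over most of the horizontal axis, and *AOS* and AT3G11180 are at 0 although 66.7% and 90.3% of the ribosomal protein genes around them were measured.

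Some neighbors of measured genes had much the same fold change. AT1G72530, which starts 197 bases from the end of *LOX4*, had 907, 511 and 699 counts in *rse1-1*, against 18, 15 and 28 counts in L*er*, a log2 fold change of 4.82 beside 4.97 for *LOX4*. AT1G19190, 154 bases from *JAZ1*, had 1981, 1193 and 1596 counts in *rse1-1*, against 65, 37 and 68 counts in L*er*, a log2 fold change of 4.53 beside 4.51 for *JAZ1*. *JAZ6* and *AOC4*, which fell, lie 32 and 14 bases from genes that fell too, by 0.90 (*EDA25*) and 1.03 (*MAP1C*) on the log2 scale. Elsewhere a gene and its neighbor differed. *UBP1B*, 11 bases from *JAZ5*, had a log2 fold change of 0.04. *AL1*, which lies farther away at 2118 bases from AT5G05600, had one of -0.01. The gene 7 bases from AT5G05600 on its other side, AT5G05598, was at 0 in every library. *ST2B*, 1652 bases from *ST2A* and related to it, had 66, 42 and 50 counts in *rse1-1*, against 437, 444 and 552 counts in L*er*. Its log2 fold change was -3.45 beside 4.32 for *ST2A*. Whether reads of one gene were counted on the next was not tested. Of the 64 flanking genes, 31 were measured and 16 were at 0 in every library. *COI1*, *JAZ12*, *LOX1* and *MYC2* each overlap another annotated gene, and the strand setting of the counting is not given in the sources used here.

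A wider list of 30 other jasmonate genes, covering fatty acid desaturation, further beta-oxidation enzymes, conjugate hydrolysis, transport, co-repressors and response genes, moved less evenly. Of the 23 measured, 14 rose, 7 fell and 2 did not pass the test, with a median log2 fold change of 0.60. The share that rose was 60.9%, against 38.8% of all genes tested. The share that fell was 30.4%, against 38.3%, so that the falls below were no more frequent than among all genes. Here too, some genes passed the minimum only through *rse1-1*, where they were high. With at least 10 counts required in every library, 20 of these genes were left, of which 11 rose and 7 fell. *TPS04*, a terpene synthase of herbivore-induced volatiles, had 1992, 1555 and 1047 counts in *rse1-1* and 2, 2 and 1 counts in L*er* (121 ± 34.3 and 0.162 ± 0.0657 CPM, SD, n = 3 each), too few in L*er* for a fold. *TAT3*, a tyrosine aminotransferase induced by jasmonate, had a log2 fold change of 7.11 (802 ± 114 CPM in *rse1-1* and 5.78 ± 0.744 CPM in L*er*, SD, n = 3 each, edgeR adjusted p = 1.32e-14). *PR4*, a chitin-binding defense gene, rose by 4.78 and AT3G22160 by 4.68 on the log2 scale, and AT3G22160 had only 3, 3 and 4 counts in L*er*. The amidohydrolases *IAR3* and *ILL6*, which cleave jasmonate conjugates, rose by 2.91 and 1.89 on the log2 scale. The largest decreases were in *FAD8* (-1.19), a plastid desaturase that makes linolenic acid, *KAT5* (-0.86), *ACX5* (-0.80) and *ABCG16* (-0.75). The desaturases *FAD7* and *FAD3* were also lower, by log2 fold changes of -0.69 and -0.62. All 3 measured desaturase genes were therefore lower in *rse1-1*, while *LOX2* was higher. The thiolases and oxidases of beta-oxidation split in the same family, since *PKT3* and *ACX1* rose whereas *KAT5*, *PKT4* (-0.64) and *ACX5* fell.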

How the data were processed

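Leaf mRNA of 3 *rse1-1* and 3 L*er* replicates was examined, grouped by sample title. According to the methods and the submitters' processing notes, the authors trimmed reads with Trimmomatic 0.32.3, aligned them with TopHat2 2.0.9 to a L*er*-0 genome rebuilt from Col-0, removed duplicates with Picard 1.119 and counted reads with HTSeq 0.6.1. The deposited values are whole, unnormalized counts per gene. Entries that name no gene made up 47.0% to 48.7% of a library and were left out. The methods call the replicates biological without saying what was replicated, so p-values measure the spread between these libraries.

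Genes were compared by the quasi-likelihood test of edgeR 4.0.16 (R 4.3.3) on TMM-scaled counts, with genotype as the only term, the filterByExpr minimum count of 10 and Benjamini-Hochberg adjustment over 16294 genes. The script was tested on simulated data. The alternatives were DESeq2 1.42.0, limma-voom (limma 3.58.1), other scalings, filters and thresholds, the replicate block, leaving out each library, and restriction by position. Of the 33602 loci, 32835 matched the TAIR10.1 annotation, which gave names, positions and promoters.

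The 50 genes, the 30 others and the motifs were chosen with earlier results of these data known. All 50 may be named. Counts per library are given for measured genes past the threshold with a log2 fold change of at least 1 in size, for *COI1*, *MYC2*, *JAR1*, *OPR3*, *AOS*, *LOX2*, *JAZ1* and *PDF1.2*, and for genes next to the minimum. Of the 30 others, the 4 largest increases and decreases are named. Other genes named, *LOX1*, *JAZ3* and *AOC4* with their counts, the other desaturases, thiolase and amidohydrolases, and the neighbors were chosen after their values were seen.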

Additional observations from a re-analysis of the deposited data

How the results depend on the processing

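Of 444 values (32 measured genes under 14 other tests, scalings, filters, the replicate block and left-out libraries, where a gene was still tested), 431 kept direction and call, 6 lost the call, 6 gained one and 1 changed sign. The values lost were those of *JAR1* and *NINJA* given above and *LOX6* with upper quartile scaling (0.13, adjusted p = 0.227). *LOX1* was called lower with upper quartile scaling, no filter, the replicate block, without L*er* replicate 3 and without *rse1-1* replicate 1, and *JAZ3* with upper quartile scaling (-0.25). The log2 fold change of *JAZ3* ranged from -0.13 to 0.0090 as each library was left out, and changed sign without L*er* replicate 1. The median log2 fold change of the measured genes was 1.37 under upper quartile scaling, where the median of all genes was -0.20, and 1.27 with at least 10 counts in every library.

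With a log2 fold change of at least 1 required, 2 of the 32 genes and 1 of the other jasmonate genes were called lower. Within 5 Mb of a chromosome start, 5 genes rose and 1 fell with a median of 3.03, and 3 of the other jasmonate genes rose and 3 fell. The restriction to genes with at least 70% of nearby ribosomal protein genes measured was chosen after seeing the data and gave 11 higher, 1 lower and a median of 1.69. The threshold alone lowered the counts with a log2 fold change of at least 1, and the restrictions by position leave fewer genes to count. The cause of the shift in the medians was not tested. Replicates of the same number were not paired, since their deviations correlated with r = 0.0419, 0.0803 and -0.0828. With the replicate block, 25 genes rose and 5 fell, with a median of 1.57, and 14 of the other jasmonate genes rose and 7 fell. No measured gene among the 50 had a group at or under 3 counts in every library, so the choice of floor gave no value.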
